A study of Mus musculus with 12 samples.

Results

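The copy number of interferon, interferon receptor and Jak genes was studied in a pair of primary murine pancreatic ductal adenocarcinoma (PDAC) lines. The set held 9 genes, chosen by name: the interferon genes Ifnb1, Ifna4 and Ifne, the receptor genes Ifnar1, Ifnar2, Ifngr1 and Ifngr2, and the kinase genes Jak1 and Jak2. Of these, 8 were named in the segment tables, among 22035 genes in all, and Ifna4 was not. The lines, 15376T and 14837T, were each profiled by whole-exome sequencing (WES) of genomic DNA, with 1 library per line, named in the text by its line. Each is a tumor line grown in culture, isolated from C57BL/6 mice that carried, among their alleles, ROSA_rtTA, p48-Cre and Trp53 L/+. In that model the Ptf1a (p48) promoter drives Cre in the pancreas, and rtTA makes an inducible transgene depend on doxycycline. The labels give the genotype of both lines as WT, which separates them from the Lin28b knockout cells of the same series. The ages of the mice and the passage of the cells are not given in the sources used here, and DNA copy number holds no check of the labelled cell type. Of the series, only these WES libraries were analysed here, so no value is a measure of expression.

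Type I interferons are secreted by cells that sense viral or misplaced nucleic acid. They bind the receptor made of Ifnar1 and Ifnar2, whose kinases Jak1 and Tyk2 phosphorylate Stat factors such as Stat2. Stat2 joins Irf9 in a complex that switches on interferon-stimulated genes. Interferon gamma signals through Ifngr1 and Ifngr2 with Jak1 and Jak2. In human tumors the type I interferon cluster lies beside CDKN2A and is often deleted together with it, and loss of JAK1 or JAK2 is a known route to interferon resistance.

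The mouse type I interferon genes lie close together on chromosome 4, and the alpha genes are closely related to each other. The stretches of 250 bases before the annotated starts of Ifnb1, Ifna4, Ifna11 and Ifne are shown because they tell which members of the cluster are alike. Ifna11 is the gene whose stretch was closest to that of Ifna4. Sequences and positions are those of RefSeq on GRCm38.p6, each is read 5′ to 3′ on the strand of its gene, and capitals mark matches to AANNGAAA, the core motif of interferon regulatory factors, searched on both strands.

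Ifnb1, chr4:88522795-88523044, minus strand: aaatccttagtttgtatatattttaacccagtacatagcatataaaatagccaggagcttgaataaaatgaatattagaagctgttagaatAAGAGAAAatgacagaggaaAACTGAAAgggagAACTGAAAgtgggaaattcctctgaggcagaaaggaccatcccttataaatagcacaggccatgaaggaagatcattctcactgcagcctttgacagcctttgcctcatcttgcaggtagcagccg
Ifna4, chr4:88841566-88841815, plus strand: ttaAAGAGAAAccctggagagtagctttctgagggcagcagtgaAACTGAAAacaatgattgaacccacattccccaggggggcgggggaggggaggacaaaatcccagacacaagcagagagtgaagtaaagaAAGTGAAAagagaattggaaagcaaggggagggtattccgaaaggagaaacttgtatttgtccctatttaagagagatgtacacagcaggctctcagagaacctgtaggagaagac
Ifna11, chr4:88819669-88819918, plus strand: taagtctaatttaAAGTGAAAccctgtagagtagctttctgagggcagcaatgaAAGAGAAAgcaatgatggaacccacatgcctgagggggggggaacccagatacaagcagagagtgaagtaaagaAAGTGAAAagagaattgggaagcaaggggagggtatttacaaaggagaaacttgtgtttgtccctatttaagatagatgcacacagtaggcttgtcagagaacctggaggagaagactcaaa
Ifne, chr4:88880202-88880451, minus strand: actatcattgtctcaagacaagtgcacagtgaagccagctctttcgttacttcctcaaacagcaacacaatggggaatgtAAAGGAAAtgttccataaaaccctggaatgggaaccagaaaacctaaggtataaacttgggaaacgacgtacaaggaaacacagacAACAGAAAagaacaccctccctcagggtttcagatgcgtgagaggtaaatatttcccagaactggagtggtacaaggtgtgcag

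The Ifnb1 and Ifna4 stretches each held 3 matches and the Ifne stretch held 2. Ifna11 also held 3. All 13 Ifna and Ifnab stretches at hand held the motif, against 21.3% of all 32851 promoter stretches of that length. A match describes the letters and does not show a bound site. The Ifna4 stretch was 85.2% identical to that of Ifna11, and over the 13 genes the identity to the closest other gene ran from 63.2% to 92%, with a median of 84.4%. The closest stretch was 63.6% identical for Ifnb1 (Ifnab) and 63.2% for Ifne (Ifna6), at the low end of that range, where Ifna6 also lay. No stretch for Ifna7 was at hand.

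The members did not all have the same copy number. Values of a segment are its coverage over that of a reference (as a log2 ratio), the B-allele frequency (BAF) and the mean read depth, and a segment is a run of exome bins that were given 1 copy number. The authors' calls put a loss at a log2 of -0.25 or below and a gain above 0.2, with 0 exceptions among 191 segments of 15376T and 235 of 14837T. The default borders of -1.1 for 0 copies and 0.7 for 4 copies were not checked against the calls. For scale, the log2 values of autosomal 2-copy segments had an SD of 0.090 in 15376T (103 segments) and 0.095 in 14837T (96 segments). With 1 library per line no difference could be tested, and each value below has no replicate error. In each line 6 of the 8 named members were called lost, beside 30.0% of all 20952 autosomal genes in 15376T and 28.8% in 14837T. The same 6 genes were lost in both lines, beside 22.4% of all genes. These 6 genes are not 6 measurements, because they lay on 2 segments per line and the 8 members lay on 4. No member was gained in 15376T, where 9.09% of genes were. Jak2 was gained in 14837T, where 21.4% of genes were. Jak2 was also the only named member with a different call in the lines, beside 29.3% of genes.

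**Figure D1:**
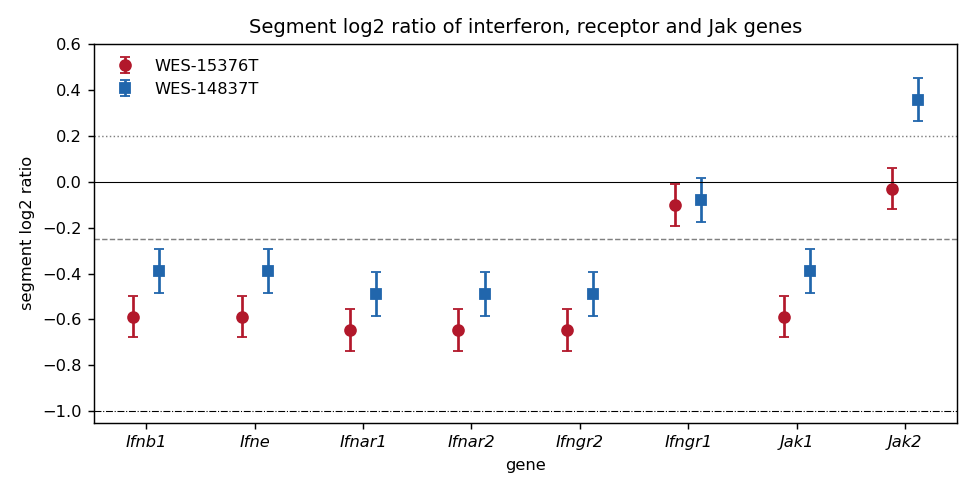
Segment log2 ratio (y axis) of the 8 named members (x axis) in 15376T (circles) and 14837T (squares). Bars are ± the SD of log2 over 2-copy autosomal segments of that line, the dashed and dotted lines are the loss and gain thresholds of -0.25 and 0.2, and the line at -1 is the ratio for 1 of 2 copies in every cell. The 6 genes on chromosomes 4 and 16 lie between the loss threshold and -1 in both lines, Ifngr1 lies near 0 in both, and Jak2 lies near 0 in 15376T and above the gain threshold in 14837T.

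Ifnb1 encodes interferon beta, which most cells make early in a response. Its segment had a log2 of -0.59 in 15376T and -0.39 in 14837T, and both were called at 1 copy. Ifne, which encodes the epithelial interferon epsilon, lay on the same segments and so had the same values. Both lines were low, and 15376T was the lower by 0.20 on the log2 scale. A smaller shift in the same direction was seen in 1-copy segments at large. Their median log2 was -0.52 in 15376T (40 segments) and -0.39 in 14837T (68 segments), over sets of segments that differ between the lines. Values for both lines were above the -1 that 1 of 2 copies in every cell would give. The share of cells with the loss was not measured.

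The cluster was far from any border. It ran from chr4:88522025 at Ifnb1 to chr4:88880201 at Ifne in mm10, which is 358 kb, and 1 segment covered all of it in each line. In 15376T that segment ran from chr4:3173523 to chr4:146117266, from Tmem68 to Zfp987, with 11970 bins, a mean depth of 29.8 and a BAF of 0.084. In 14837T it ran from chr4:63235266, in Col27a1, to the same right border, with 8203 bins, a mean depth of 35.5 and a BAF of 0.052. The cluster thus lay 57.2 Mb from the right border in both lines, and 85.3 Mb from the left border in 15376T against 25.3 Mb in 14837T. No border lay at or within the cluster in either line, and the loss called there was that of a long stretch of the chromosome. Only 5 of the 33 protein-coding genes from Ifnb1 to Ifne were named, so a short change within the cluster could be missed.

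Chromosome 4 differed between the lines away from the cluster. It was divided into 4 segments in 15376T, all at 1 copy, with log2 from -0.81 to -0.51. In 14837T it had 10 segments. The first of these, from Tmem68 to Nkain3, was at 1 copy (log2 -0.41). The 5 segments between it and the cluster's segment were at 2 or 3 copies, with log2 from -0.091 to 0.33. Ifnk, the keratinocyte interferon gene, lies 53.4 Mb before Ifnb1 and fell in that stretch. Its log2 was -0.59 (1 copy) in 15376T and 0.19 (2 copies) in 14837T, so this interferon gene was lost in 1 line only, and its value in 14837T was just under the gain threshold. Rigi, which encodes a sensor of viral RNA, had the same values as Ifnk. Il11ra1, which encodes the interleukin 11 receptor chain, was at -0.59 (1 copy) in 15376T and 0.33 (3 copies) in 14837T. It was the only one of 104 genes of the pathway lists that was lost in 15376T and gained in 14837T. In the pathway lists 0 genes were gained in 15376T and lost in 14837T. The share of all genes with such opposite calls was not computed, so these counts are not read as a trait of the pathway.

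**Figure D2:**
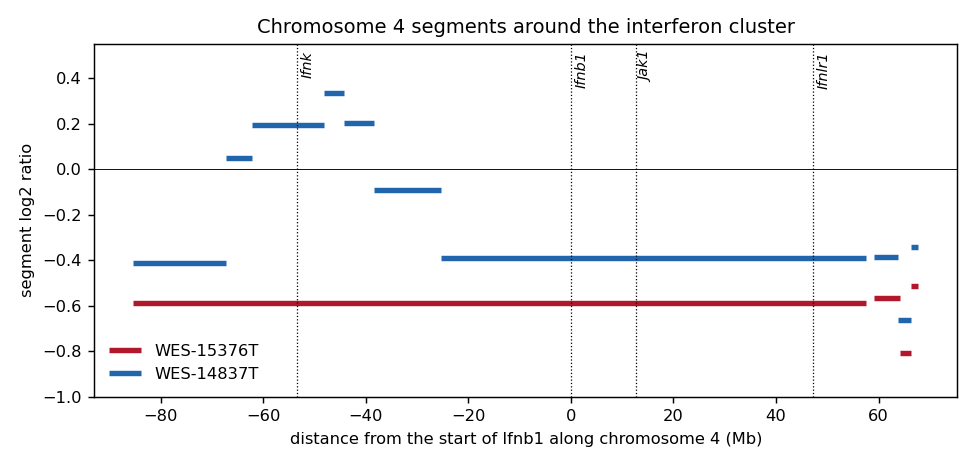
Segment log2 ratio (y axis) along chromosome 4 in 15376T and 14837T, by distance from the start of Ifnb1 in Mb (x axis). Dotted lines mark Ifnk, Ifnb1, Jak1 and Ifnlr1. A single segment at -0.59 spans all 4 genes in 15376T, whereas in 14837T the segment at -0.39 begins 25.3 Mb before Ifnb1 and leaves Ifnk outside it.

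The alpha interferon genes were not named in the tables. RefSeq places 33 protein-coding genes from Ifnb1 to Ifne, and only 5 of them (15.2%) were named in the tables, against 91.7% of 20665 autosomal protein-coding genes. The 5 were Ifnb1, Pramel32, Klhl9 (a ubiquitin ligase adaptor), Gm13288 and Ifne. None of the 14 Ifna and Ifnab genes was named. Ifna4 lies at chr4:88841816-88842459 and so inside the 1-copy segment of both lines, by position only. No bin was named for it. The nearest named bins were those of Gm13288, 33.4 kb before it, and of Ifne, 37.1 kb beyond it, and the gap of 71.1 kb between these bins held 6 Ifna genes. Gm13288, whose stretch before the start was 99.6% identical to the closest other one, was named. The part of sequence likeness in which genes were named was not tested.

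Where the gene table listed a member, its own read depth was at hand as well. The smallest absolute log2 of any listed gene was 0.40 in each line, and Ifnb1, Ifne and Jak1, which were at -0.39 in 14837T, were listed in 15376T only. In 15376T the own depth of Ifnb1 was 28.5, from 1 bin that overlapped 595 bases of the gene, close to the 29.8 of the whole segment. The own depth of Ifne was 41.0, also from 1 bin. Among the 174 genes of that segment with 1 bin, depth had a 10th percentile of 14.9, a median of 34.1 and a 90th percentile of 81.8, so both genes were within the usual spread. Neither was near a depth of 0, and both lay within the 12.6 to 66.9 of the listed genes around the cluster.

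The nearest listed genes beside Ifnb1 were Hacd4, a gene of fatty acid elongation, at a depth of 62.0 (6 bins), and Pramel32 at 66.9 (5 bins). Those beside Ifne were Gm13288 at 19.0 (1 bin) and Mir31 with its host Gm49890 at 30.4 (1 bin). Further along were Mtap at 49.8 (7 bins), Cdkn2a, which encodes the cell-cycle inhibitors p16 and p19 ARF, at 21.8 (3 bins), and Cdkn2b, which encodes p15, at 12.6 (2 bins). Depth per gene is deposited without correction, so these values do not rank copy number between genes. Mtap, Cdkn2a and Cdkn2b were named after their values were seen.

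**Figure D3:**
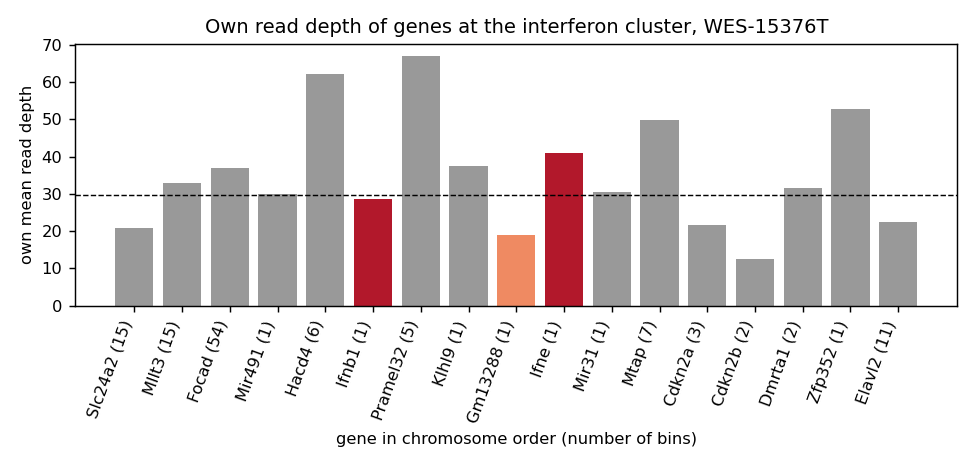
Own mean read depth (y axis) of the listed genes around the cluster in 15376T, in chromosome order, with the number of bins of each gene in parentheses (x axis). The dashed line is the mean depth of the segment, 29.8, and dark red bars are Ifnb1 and Ifne. All bars are above 0, and they run from 12.6 (Cdkn2b) to 66.9 (Pramel32).

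Among the receptors, Ifnar1, Ifnar2 and Ifngr2 were lost in both lines and Ifngr1 was not. Ifnar1 and Ifnar2 encode the chains of the type I receptor, and Ifngr2 encodes the signalling chain of the interferon gamma receptor. They lie next to each other on chromosome 16, with Il10rb, which encodes the chain shared by the interleukin 10 and lambda interferon receptors, between Ifnar2 and Ifnar1. Ifnar2 is at chr16:91372783-91405589, Ifnar1 at chr16:91485032-91510523 and Ifngr2 at chr16:91547059-91564007. The borders of their segment were the same in both lines, chr16:24608101-98082498, from Lpp to A630089N07Rik. Its log2 was -0.65 in 15376T (4416 bins, depth 29.1, BAF 0.086) and -0.49 in 14837T (4418 bins, depth 34.1, BAF 0.055), both called at 1 copy. This was lower than the chromosome 4 segment in each line, and again 15376T was the lower, by 0.16 on the log2 scale.

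Ifngr1 encodes the chain that binds interferon gamma. It lies at chr10:19591949-19610229, in a segment with the same borders in both lines, chr10:3120192-57862307, from 9230019H11Rik to Smpdl3a, with 3097 bins in each. Its log2 was -0.10 in 15376T (depth 41.5, BAF 0.023) and -0.080 in 14837T (depth 44.2, BAF 0.055). Both were called at 2 copies, and the difference of -0.021 was smaller than the SD among 2-copy segments. The chains of the interferon gamma receptor thus had unlike calls in both lines, Ifngr1 at 2 copies and Ifngr2 at 1. With Il10rb and Ifnlr1, the lambda interferon receptor gene that shares the chromosome 4 segment of the cluster, 5 of the 6 interferon receptor genes were lost in each line, beside 30.0% of all genes in 15376T and 28.8% in 14837T. These 5 genes lay on 2 segments per line.

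The receptor genes of chromosome 16 were listed in both lines, so their own depths could be set side by side. Ifnar1 (10 bins) had a depth of 39.7 in 15376T and 57.3 in 14837T. Ifnar2 (8 bins) had 33.8 and 48.0, and Ifngr2 (6 bins) had 26.7 and 38.6. All 3 were lower in 15376T. After scaling to the depth of 2-copy segments (46.0 and 47.5), the log2 ratio of own depth, 15376T over 14837T, was -0.48 for Ifnar1, -0.46 for Ifnar2 and -0.49 for Ifngr2. The segment difference was -0.16. Own depth was thus lower in 15376T than the segment values give, by -0.32 for Ifnar1, -0.30 for Ifnar2 and -0.33 for Ifngr2 on the log2 scale. Il10rb, with depths of 29.5 and 41.5 from 6 bins, was off by -0.29.

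Over all 1985 genes with at least 5 bins that both gene tables list, this offset had a median of -0.039 and an SD of 0.148. Only 3.3% of these genes were lower than Ifnar1, 4.2% lower than Ifnar2 and 3.1% lower than Ifngr2. The receptors were not alone on their stretch of the chromosome. The 21 other genes within 2 Mb of Ifnar1 had a median offset of -0.20, with 17 of them below 0. The 30 genes beyond that, up to the right border of the segment, had a median of -0.17, with 26 below 0. The 195 genes more than 6 Mb before Ifnar1 had a median of 0.020, with 86 below 0, and the 9 genes in between had -0.044. The lower own depth was thus shared by most genes from 2 Mb before Ifnar1 to the end of the segment. It was not limited to that stretch. Among the 195 genes more than 6 Mb before Ifnar1, the neighbouring listed genes from Nr1i2 to Poglut1 had offsets from -0.38 to -0.29.

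Tmem50b, the next listed gene after Ifngr2, was at -0.25, and Olig1, the next listed before Ifnar2, was at -0.65 from 1 bin. The interferon-stimulated genes Mx1 and Mx2 lie near the end of the same segment and were at -0.19 and -0.42. Genes were also grouped in autosomal windows of 4 Mb. Only genes listed in both lines have an offset, and their absolute log2 is at least 0.40 in each. The windows, and the shares of listed genes above, thus hold no 2-copy stretch. The window of the receptors (22 genes) had a median of -0.22. Of 105 windows with at least 5 genes 1 was lower, and the median and SD over windows were -0.037 and 0.081. The deposited segmentation put no border there in either line. Own depth carries no correction, and its part in the offset was not tested. This look at own depth by position, the windows, Mx1, Mx2 and the genes from Nr1i2 to Poglut1 were chosen after values were seen.

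**Figure D4:**
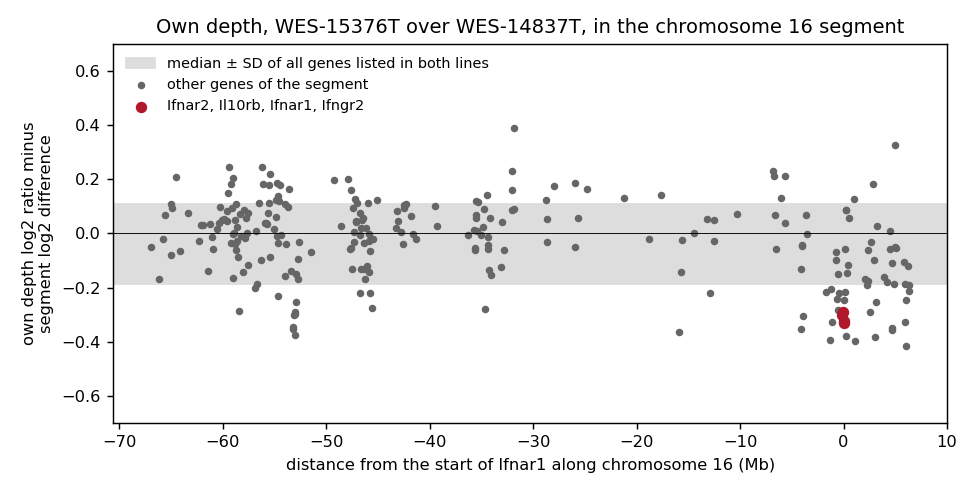
Log2 ratio of own depth, 15376T over 14837T, minus the log2 difference of the segment (y axis), for genes with at least 5 bins on the chromosome 16 segment, by distance from the start of Ifnar1 in Mb (x axis). The grey band is the median ± SD over all 1985 such genes (-0.039 ± 0.148). The receptor genes (red) lie between -0.33 and -0.29, below the band, among other genes of the last stretch of the chromosome that mostly lie below 0.

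The kinases differed from each other. Jak1, which serves the receptors of all interferons, lies at chr4:101151974-101265282, 12.3 Mb beyond Ifne, on the segment of the cluster. It therefore had the same log2 of -0.59 in 15376T and -0.39 in 14837T, at 1 copy. Its own depth in 15376T was 34.1 over 24 bins, above the 29.8 of the segment and higher than in 48.0% of the 98 listed genes of the segment with at least as many bins. Its listed neighbours were Raver2 at 25.6 (16 bins) and E130102H24Rik at 8.23 (1 bin).

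Jak2, which serves interferon gamma and many hematopoietic cytokines, lies at chr19:29251803-29313095. Its log2 was -0.030 in 15376T, called at 2 copies, and 0.36 in 14837T, called at 3 copies. The segment ran from chr19:12469472 to chr19:35959787 in 15376T, from Dtx4 to A830019P07Rik, with 1577 bins, a depth of 46.8 and a BAF of 0.11. In 14837T it ran from chr19:11096882 to chr19:35960437, from Ms4a20 to Htr7, with 1794 bins, a depth of 65.2 and a BAF of 0.056. The difference of -0.39 was the largest among the members and exceeded the SDs among 2-copy segments of both lines added together. Jak2 was 6.65 Mb from the nearest border in both lines, so its gain was that of a long stretch. Jak2 was not listed in the gene table of either line, which leaves it without an own depth. How BAF was computed is not given in the sources used here, and the values for the members are descriptions only. Weighted by segment length, the autosomal median was 0.077 in 15376T and 0.061 in 14837T.

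Set in order, the segment log2 values of the members in 15376T were lowest for the chromosome 16 receptors, then the chromosome 4 genes, then Ifngr1, then Jak2. The order was the same in 14837T. The chromosome 16 and chromosome 4 values, -0.65 and -0.59, were within 1 SD of each other in 15376T. They were just over 1 SD apart in 14837T, at -0.49 and -0.39. Ifngr1 and Jak2 were likewise within 1 SD in 15376T (-0.10 and -0.030), and far apart in 14837T (-0.080 and 0.36).

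The other genes of the pathway were mixed. Over lists of ligands, receptors, kinases, Stats, regulators, sensors and targets, 104 autosomal genes were counted, the 8 named members among them. Of these, 40 (38.5%) were lost in 15376T and 39 (37.5%) in 14837T, against 30.0% and 28.8% of all genes. A total of 9 (8.65%) and 24 (23.1%) were gained, against 9.09% and 21.4%. The call differed for 39 genes (37.5%), against 29.3% of all genes. The median log2 of the 104 genes was -0.034 in 15376T and -0.045 in 14837T, beside -0.023 and -0.045 over all autosomal genes. Many of them share segments, so the counts are not of independent genes. Gains were more frequent in 14837T over all genes, and the counts of each list are read beside these shares of all genes, 30.0% lost and 9.09% gained in 15376T and 28.8% and 21.4% in 14837T.

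Of the interferons outside chromosome 4, the lambda genes Ifnl2 and Ifnl3 were at 1 copy in both lines (log2 -0.53 in 15376T and -0.31 in 14837T). Ifng, which encodes interferon gamma, was at 2 copies in 15376T (-0.035) and 1 copy in 14837T (-0.38). Among the Jak kinases, Tyk2, the partner of Jak1 on the type I receptor, was at 2 copies in 15376T (0.099) and 3 in 14837T (0.36). Jak3, the kinase of the common gamma chain, was at 2 copies in both (0.058 and 0.017). 14837T thus had 2 of its 4 Jak genes gained and 15376T had none, beside 21.4% and 9.09% of all genes.

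The 6 Stat genes counted lay on 3 segments in 15376T. None was lost or gained in that line, beside 30.0% and 9.09% of all genes. Stat6 alone was lost and none was gained in 14837T, beside 28.8% and 21.4%. Stat6 acts downstream of interleukin 4. Its log2 was 0.12 in 15376T and -0.38 in 14837T. Stat2, which acts in type I signalling, was at 0.12 and -0.23, both called at 2 copies although the second was close to the loss threshold. Stat4, a factor of interleukin 12 signalling, was at 0.045 and -0.035, and Stat3, the main factor of interleukin 6, at 0.050 and 0.040, each at 2 copies.

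Of 9 interferon regulatory factors, 3 were lost and 1 was gained in 15376T, and 4 were lost and 0 gained in 14837T. Over all genes these shares were 30.0% lost and 9.09% gained in 15376T, and 28.8% and 21.4% in 14837T. The gain was Irf2, a factor that both represses and activates interferon targets, at a log2 of 0.89 and 4 copies in 15376T against -0.11 and 2 copies in 14837T. Tlr3, which encodes an endosomal sensor of double-stranded RNA, shared that 4-copy segment of chromosome 8 (389 bins, depth 90.8) and was at 0.039 and 2 copies in 14837T. Irf9, the DNA-binding partner of Stat2, was at 1 copy in both lines (-0.55 and -0.31), as was Irf7, a main inducer of the alpha genes (-0.53 and -0.31). Irf4, a lymphoid factor, was at 2 copies in 15376T (-0.036) and 1 copy in 14837T (-0.47).

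Of 13 sensors and adaptors, 6 were lost in 15376T and 3 in 14837T, with 1 and 2 gained. All genes were lost at 30.0% and 28.8%, and gained at 9.09% and 21.4%. A set on chromosome 9 was lost in 15376T only. Tlr9, a DNA sensor, was at -0.62 and -0.026, Myd88, the adaptor of most Toll-like receptors, at -0.59 and -0.075, and Cgas, the cytosolic DNA sensor, at -0.53 and -0.029, each at 1 copy in 15376T and 2 in 14837T. Negative regulators were lost in equal number, 7 of 16 in each line, beside 30.0% and 28.8% of all genes. Of them 5 were lost in both lines, beside 22.4% of all genes, and 3 and 2 were gained, beside 9.09% and 21.4%. Cish, a Socs family inhibitor, was at -0.62 in 15376T and -0.026 in 14837T. Pias1, an inhibitor of Stat signalling, was at -0.53 and -0.029, and Pias4 was at 0.010 and -0.38. Usp18 and Ptpn6 encode negative regulators of interferon receptor and Jak signalling, and both were at 0.33 (3 copies) in 15376T and -0.045 (2 copies) in 14837T.

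Of 23 interferon-stimulated genes, 6 were lost in each line, while 1 was gained in 15376T and 8 in 14837T. The lost genes were the same 6 in both lines, beside 22.4% of all genes lost in both. Some of them share a segment, as Mx1 and Mx2 do. The shares over all genes were 30.0% and 28.8% lost and 9.09% and 21.4% gained. Ifit1, Ifit2 and Ifit3, which encode antiviral RNA-binding proteins, lay on the segments of Jak2 and had its values of -0.030 and 0.36. Adar, which encodes an RNA-editing enzyme, was at 0.097 (2 copies) and 0.62 (3 copies). Of 21 other autosomal cytokine receptors that signal through Jaks, 7 were lost in each line, 3 were gained in 15376T and 10 in 14837T, beside 9.09% and 21.4% of all genes gained and 30.0% and 28.8% lost. The interleukin 6 receptor gene Il6ra had the same values as Adar. Its partner Il6st, which encodes gp130, was at -0.032 (2 copies) in 15376T and -0.38 (1 copy) in 14837T.

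**Figure D5:**
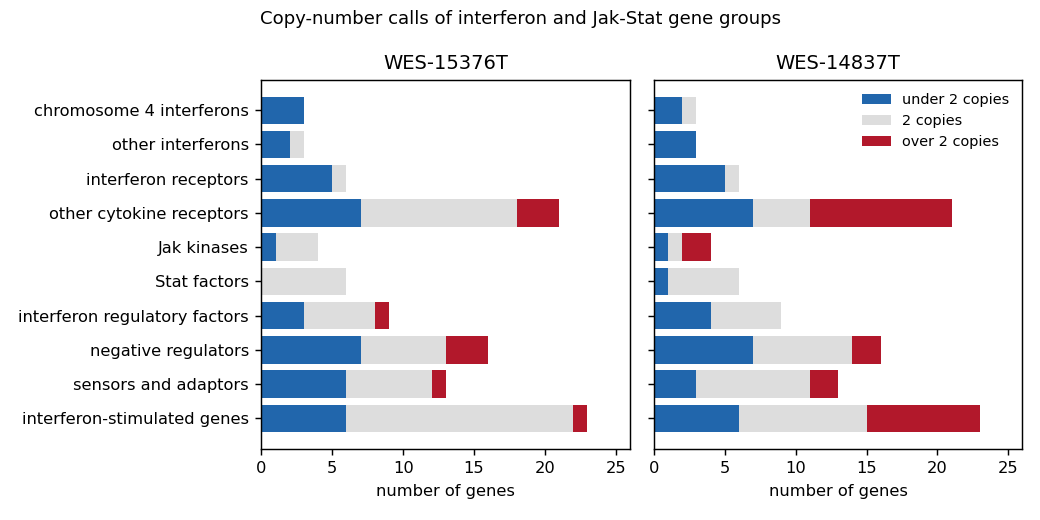
Number of genes (x axis) of each fixed list (y axis) whose segment was called under 2 copies, at 2 copies or over 2 copies, in 15376T (left) and 14837T (right). Interferons and interferon receptors are mostly under 2 copies in both lines, beside 30.0% of all genes in 15376T and 28.8% in 14837T. These are few genes on shared segments, and only 3 of the 18 chromosome 4 interferon genes were named. The 6 Stat genes are at 2 copies but for Stat6 in 14837T. Gains are more frequent in 14837T, as they are over all genes (21.4% against 9.09%).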

How the data were processed

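Genomic DNA of the lines was sequenced on the NovaSeq platform after exome capture. The labels name a SureSelect kit and the paper's methods a NimbleGen kit, both of human design, while the DNA is from mouse. Deposited log2 values are ratios of coverage to a reference that is not given in the sources used here, nor are the aligner, caller and filters. The labels also list a WES library named WES-WT, which was not analysed here, and whether it served as the reference is not stated. The deposited BAF is a fraction from 0 to 1. The depth deposited by the authors is a coverage signal with no normalization. Copy numbers are the authors' calls, and the tables have the layout of CNVkit. The mean depth of 43.4 (15376T) and 47.5 (14837T) sets the precision, which covers no biological error.

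Each gene was given the values of the segment that names it. Gene positions came from RefSeq (GRCm38.p6), on the mm10 coordinates per the labels. The log2 ratio of own depth was scaled by the depth of autosomal segments called at 2 copies. Stretches before gene starts were aligned in Biopython 1.88, with pandas 2.3.3 for tables, and the code was tested on simulated data. Genes were named by a rule: the 9 members, genes of the cluster listed in a gene table, list genes at 0 or at 4 copies or more, or with opposite calls, up to 4 per list with the largest difference, and first, last and nearest genes. The members and lists were chosen with earlier results of these data known. An allele of the mice and a gene of the Stat list are not reported here. Alternatives were thresholds of 0.3 and 0.5, recentring, the gene table's log2, scaling by all autosomal segments, and at least 5 bins.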

Additional observations from a re-analysis of the deposited data

How the results depend on the processing

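Where an absolute log2 of at least 0.5 was asked for, 0 of the 8 members were lost in 14837T in place of 6, and 6 in place of 1 had a different call in the lines, while 6 stayed lost in 15376T. The loss in 14837T thus rests on values from -0.49 to -0.39. A threshold of 0.3 and recentring on the autosomal median left the 3 counts of members as they were. Recentring shifts all log2 values of a line alike, and the shift was under the SD among 2-copy segments. The gene table repeats the log2 of the segment for every listed gene, so its use could change no member. The receptors each have more than 5 bins, so asking for at least 5 could not change their ratios. Scaling own depth by all autosomal segments adds the same 0.086 to every ratio, which is too small to change the sign of a receptor ratio. No paired analysis was possible because there was no second library of either line. Ifnb1 and Ifne each rest on 1 bin of own depth, and Ifna4 on none.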
